A study of Mus musculus with 9 samples.

Results

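The mitochondrial genome transcripts were the rows of the count table whose gene symbol begins with mt-. They comprised 37 of 55471 genes, with 13 mRNAs, 2 rRNAs and 22 tRNAs. The cells were bone marrow-derived dendritic cells (DCs) from WT C57BL/6 mice, grown from bone marrow with GM-CSF, which yields a mixed culture of DC-like and macrophage-like cells. They were left unstimulated or were stimulated for 6 h with LPS, a component of the bacterial outer membrane, or with IFN-β, an antiviral cytokine. Each group had 3 libraries, labelled A, B and C, made from total RNA after ribosomal RNA depletion. No allele was changed in any group. The comparison addressed here was how the mRNA, rRNA and tRNA classes of the mitochondrial genome behaved in LPS- and IFN-β-treated DCs relative to unstimulated DCs.

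Mammalian mitochondrial DNA is a small circle without introns, and both of its strands are transcribed into long precursors. The heavy-strand transcript carries both rRNAs, most tRNAs and all mRNAs except mt-Nd6, which is read from the light strand. The tRNAs lie between the other genes and are excised by dedicated nucleases, which frees the flanking mRNAs and rRNAs. The mRNAs encode subunits of respiratory complexes I (mt-Nd1 to mt-Nd6 and mt-Nd4l), III (mt-Cytb) and IV (mt-Co1 to mt-Co3) and of the ATP synthase (mt-Atp6 and mt-Atp8). All proteins that transcribe, cut, modify and degrade these RNAs are coded in the nucleus. In activated DCs, the balance between respiration and glycolysis is known to change with the stimulus.

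The libraries held 33425803 to 43735199 assigned counts, and counts were scaled to CPM (counts per 1000000 counts) with TMM factors, which equalise the bulk of genes between libraries. The factors were 1.18 to 1.26 in unstimulated, 0.783 to 0.841 in LPS and 0.977 to 1.02 in IFN-β libraries. They thus differed between the groups, which matters for every mitochondrial level given below. A marker list of 11 DC and macrophage genes summed to 9037 ± 577 CPM in unstimulated cells (SD, n = 3), whereas lists for T or NK, B, mast and erythroid cells each averaged at most 0.358 CPM in every group, with 3 of 5 erythroid markers at 0 throughout. Neutrophil markers averaged 1.86 to 2.86 CPM and stromal markers 3.22 to 5.44 CPM, the highest in LPS for both. Their part in the results below was not tested.

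The counts of the mitochondrial genes are limited by which reads can be assigned to 1 place. The counting mode of STAR, which the authors used, keeps reads that map to a single place and touch a single gene. Mouse chromosome 1 carries a nuclear copy of a mitochondrial stretch (GRCm38 chr1:24611535-24616197, minus strand), annotated as 7 unprocessed pseudogenes, which corresponds to chrM:6381-11042 from within mt-Co1 to within mt-Nd4. Over their aligned lengths the pseudogenes for mt-Co2 (Gm28661, 681 bases), mt-Atp6 (Gm10925, 678 bases), mt-Co3 (Gm28437, 783 bases), mt-Nd4l (Gm10222, 294 bases) and the first 876 bases of mt-Nd4 (Gm28439) had 0 mismatches to the mitochondrial genes. The pseudogene for mt-Nd3 (Gm28438) had 1 mismatch, T3C, and the one for the end of mt-Co1 (Gm29216) had 6, T1056A, C1057T, A1059G, A1060G, C1062A and A1066T, counted from the first base of the mitochondrial gene. All 6 lay in the first bases of the pseudogene, so the start of Gm29216 shows the edge of the copy. Both sequences are given from GENCODE M21 transcripts over 60 bases, 5′ to 3′ in gene direction, with the differing bases in capitals, at chrM:6381-6440 for mt-Co1 and chr1:24616138-24616197 (minus strand) for Gm29216.
mt-Co1: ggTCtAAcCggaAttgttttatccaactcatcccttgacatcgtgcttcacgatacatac
Gm29216: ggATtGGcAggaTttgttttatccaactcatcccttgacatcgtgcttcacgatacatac
Beyond the last of these capitals the copy and the gene were identical, so reads from there could not be placed uniquely by sequence alone.

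Some tRNAs with free bases beside them on their strand, among them mt-Ta, mt-Ty and mt-Te, had too few counts to be tested. The tRNAs that were tested are shown next. All of them lie where a read can extend past the tRNA without touching another gene of the same strand. They are printed as DNA in gene direction from GENCODE M21 (GRCm38), with the anticodon in capitals, for mt-Tq (glutamine, chrM:3772-3842, light-strand RNA), mt-Tm (methionine, chrM:3845-3913, heavy-strand RNA), mt-Tw (tryptophan, chrM:4950-5016, heavy-strand RNA), mt-Tt (threonine, chrM:15289-15355, heavy-strand RNA) and mt-Tp (proline, chrM:15356-15422, light-strand RNA).
mt-Tq: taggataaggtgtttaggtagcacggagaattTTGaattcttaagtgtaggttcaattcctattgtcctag
mt-Tm: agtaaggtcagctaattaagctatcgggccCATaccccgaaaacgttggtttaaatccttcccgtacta
mt-Tw: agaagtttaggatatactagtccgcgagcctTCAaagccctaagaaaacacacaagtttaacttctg
mt-Tt: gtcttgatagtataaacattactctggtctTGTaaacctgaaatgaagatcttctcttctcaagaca
mt-Tp: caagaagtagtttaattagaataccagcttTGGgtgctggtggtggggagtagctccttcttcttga
At 67 to 71 bases they were shorter than the 100-base reads.

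Within the copied stretch the counts fell from the highest to nearly none. mt-Co1, the catalytic subunit of complex IV, had 139703 to 214755 counts per library, whereas mt-Co2 had 23 to 35, mt-Co3 15 to 34, mt-Atp6 5 to 19, mt-Nd3 2 to 5, mt-Nd4l 0 to 3 and mt-Atp8 0 to 1. Of all 100-base windows, 99.5% in mt-Co2, 99.5% in mt-Atp6, 99.9% in mt-Co3, 97.6% in mt-Nd3 and 98.5% in mt-Nd4l occurred unchanged in another annotated transcript. The share was 60.8% in mt-Nd4, 30.8% in mt-Co1 and 3.19% in mt-Nd2, and 0% in the remaining mRNAs and both rRNAs. mt-Atp8 also had 0% by this measure, but its stretch on chromosome 1 lies in a gap between 2 annotated pseudogenes (Gm10925 and Gm28661) that transcript sequences do not cover. The pseudogenes collected few reads themselves, the most counted being Gm29216 with 31 to 70 per library, Gm28661 with 28 to 68 and Gm13340, a further copy of mt-Co1 on chromosome 2, with 34 to 70. The low counts of mt-Co2, mt-Atp6, mt-Co3, mt-Nd3, mt-Nd4l and mt-Atp8 are therefore not read here as levels of these mRNAs.

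**Figure D1:**
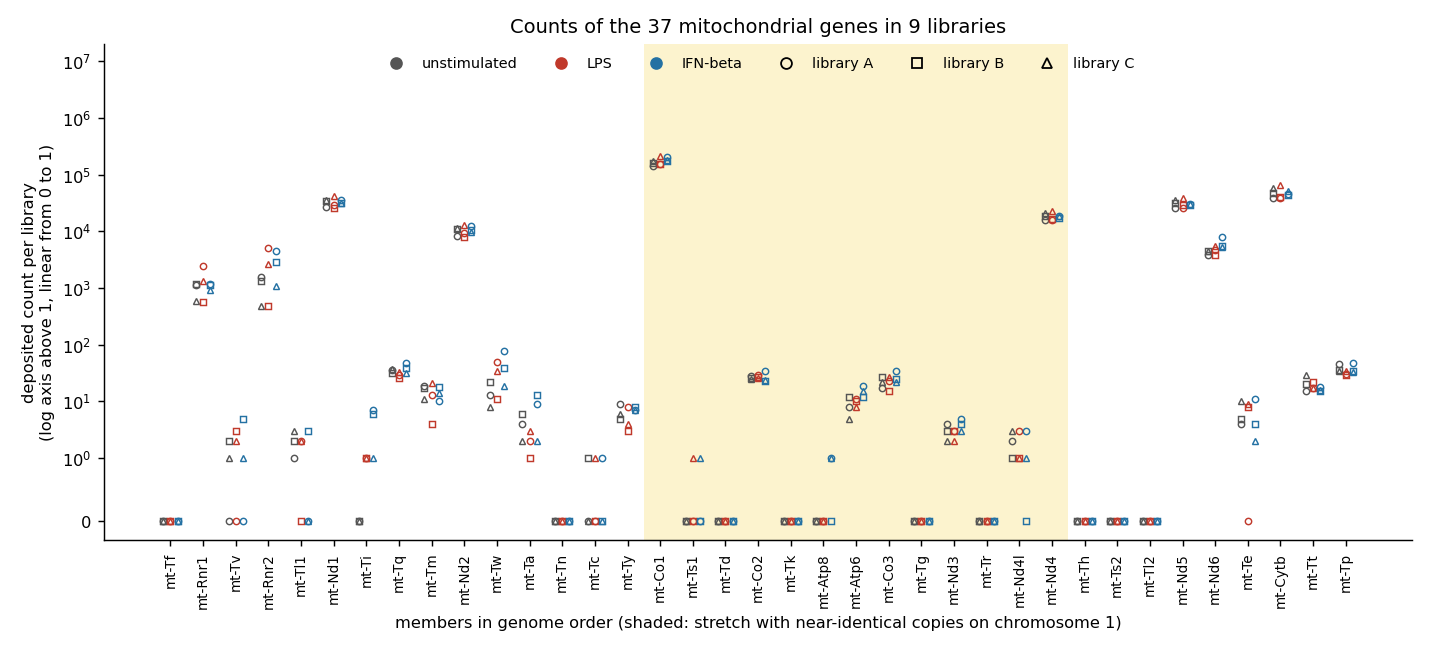
Deposited counts (vertical axis, logarithmic above 1 and linear from 0 to 1) of the 37 mitochondrial genes in genome order (horizontal axis), 1 point per library, coloured by group and shaped by letter. Inside the shaded stretch, which has near-identical copies on chromosome 1, mt-Co1 and mt-Nd4 kept at least 15736 counts in every library, and no other gene exceeded 35.

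Among the tRNAs, 9 had 0 counts in all 9 libraries, which allows up to 3 counts per library (0.0686 to 0.0898 CPM, counting error only). The 5 tRNAs inside the copied stretch summed to 0 to 2 counts over all libraries, although mt-Ts1, a serine tRNA, had the widest gap next to it. Of the 17 others, the 9 with at least 70 free bases to the next gene of their strand on 1 side had 17 to 325 counts, and the 8 with less room had 0 to 14. The dividing value was chosen after the counts were seen. The most counted were mt-Tp with 325 and mt-Tq with 313, both light-strand RNAs, followed by mt-Tw with 271, mt-Tt with 169 and mt-Tm with 127. Reads that touched a neighbouring gene of the same strand were not counted, so these counts are not read here as levels of mature tRNA.

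**Figure D2:**
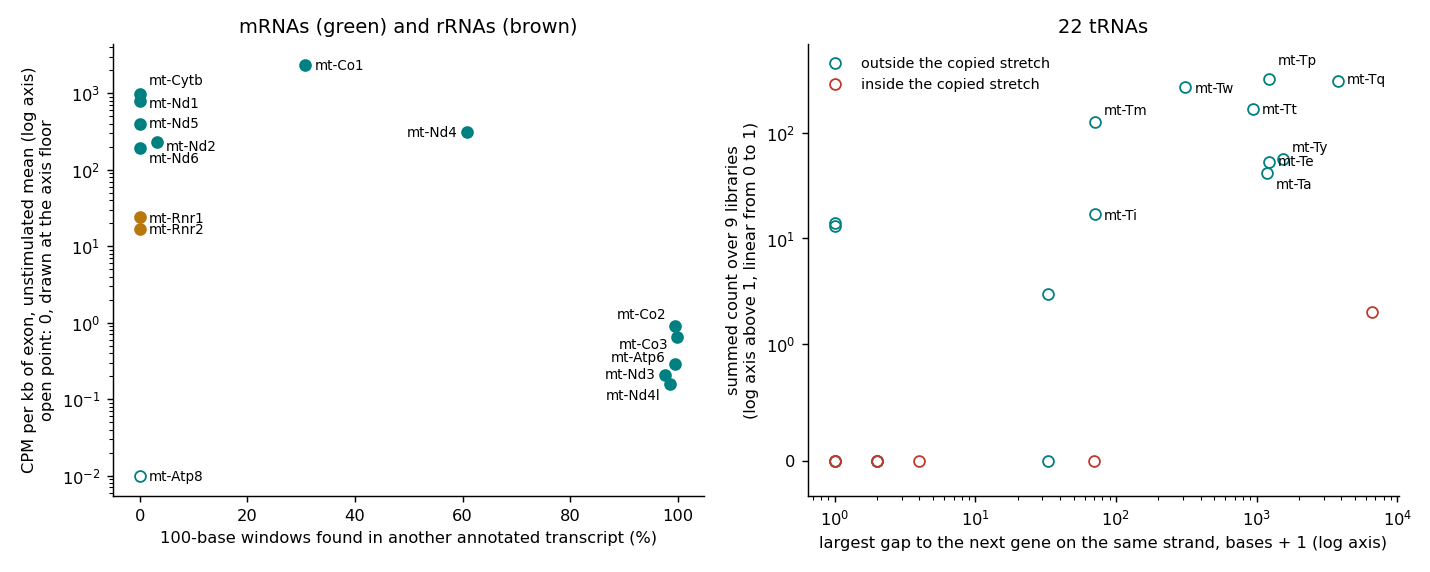
Left, level of 13 mRNAs and 2 rRNAs in unstimulated DCs (CPM per kb of exon, log axis) against the percentage of 100-base windows shared with another transcript. Right, summed count of 22 tRNAs over 9 libraries against the largest gap to the next gene on the same strand. The 5 mRNAs with over 97% shared windows lie below 1 CPM per kb, and tRNAs with wide gaps outside the copied stretch have 17 to 325 counts.

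Levels per kb of exon ordered the well-counted mRNAs in unstimulated DCs as mt-Co1 (2376 ± 106 CPM per kb, SD, n = 3), mt-Cytb of complex III (981 ± 140), mt-Nd1 (786 ± 73.9), mt-Nd5 (394 ± 41.5), mt-Nd4 (313 ± 25.3), mt-Nd2 (227 ± 22.8) and the light-strand mt-Nd6 (192 ± 7.44). Per 1000 unshared windows in place of exon length, mt-Co1 was at 3670 ± 164 CPM and mt-Nd4 at 859 ± 69.5 CPM, next to mt-Nd1 at 876 ± 82.4 CPM. On that scale mt-Nd4 and mt-Nd1 differed by less than their spread, whereas per kb mt-Nd4 stood below mt-Nd5. mt-Cytb and mt-Nd1 remained neighbours on both scales. The rRNAs, the most abundant mitochondrial RNAs in a cell before depletion, were at 23.7 ± 8.44 (mt-Rnr1, small ribosomal subunit) and 16.9 ± 9.11 CPM per kb (mt-Rnr2, large subunit). The rRNA levels are what the depletion left and were far more variable than the mRNAs. mt-Nd6 also stood apart in base composition, with 28.1% G and 5.97% C in its coding strand against 5.88 to 16.1% G and 22.1 to 30.0% C in the 12 heavy-strand mRNAs.

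The mitochondrial mRNAs together took a similar share of all counts in the 3 groups. They made up 0.776%, 0.858% and 0.959% of counts in unstimulated libraries A, B and C. In LPS libraries they made up 0.765%, 0.667% and 1.04%, and in IFN-β libraries 0.799%, 0.834% and 0.878%. The groups overlapped, and counting error was negligible here, with 95% Wilson intervals of at most ± 0.00322 percentage points. After TMM scaling the same sums were 6573, 6916 and 7602 CPM in unstimulated, 9772, 7971 and 12337 CPM in LPS, and 8184, 8184 and 8934 CPM in IFN-β libraries. Neither stimulated group overlapped with the unstimulated group on this scale. The rise of the mitochondrial mRNAs described next is thus a rise relative to the bulk of nuclear genes and not in the share of sequenced RNA. In bulk samples, a change in cell numbers and a change in RNA per cell cannot be told apart.

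In LPS-treated DCs, 6 of the 10 tested mitochondrial mRNAs and 1 tRNA gene had higher scaled counts than in unstimulated DCs. All 6 were among the 7 mRNAs with at least 1000 counts in every library. Of 16260 genes tested, 17 were mitochondrial (10 mRNAs, 2 rRNAs and 5 tRNAs), because the filter on low counts removed 3 mRNAs and 17 tRNAs. Of these 17, 7 were higher and 0 lower at adjusted p under 0.05 (edgeR's quasi-likelihood test, Benjamini-Hochberg over all genes). Among all genes tested, 68.2% passed, 32.8% higher and 35.4% lower, so that being called is no feature of the mitochondrial genes. The median log2 fold change of the 17 was 0.44, against -0.04 over all genes tested, and all 17 estimates were above 0. The 17 include mt-Co2, mt-Atp6, mt-Co3 and the 5 tRNAs, whose counts are not read here as RNA levels.

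mt-Co1 had 3540, 3617 and 3854 CPM in unstimulated, 5418, 4390 and 6598 CPM in LPS and 4692, 4522 and 4915 CPM in IFN-β libraries A, B and C. Every stimulated library was above every unstimulated one. It rose by 0.58 ± 0.14 with LPS (log2 ± standard error, adjusted p = 0.00357, edgeR), which is 1.49-fold, in 3 of 3 letters. The complex I mRNAs behaved alike under LPS, with log2 fold changes of 0.44 (mt-Nd1), 0.43 (mt-Nd2), 0.44 (mt-Nd4), 0.46 (mt-Nd5) and 0.59 (mt-Nd6), all past the threshold.

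mt-Nd5, the longest of the mRNAs, had 654, 698 and 801 CPM in unstimulated, 914, 839 and 1204 CPM in LPS and 711, 781 and 830 CPM in IFN-β libraries. All LPS libraries stood above all others, while unstimulated and IFN-β libraries overlapped. mt-Nd1 had 677, 762 and 817 CPM in unstimulated and 1032, 751 and 1280 CPM in LPS libraries, so that LPS library B fell among the unstimulated ones. mt-Cytb, at 993, 1073 and 1301 CPM in unstimulated and 1357, 1160 and 1972 CPM in LPS libraries, did not pass the threshold (log2 fold change 0.42 ± 0.19, adjusted p = 0.0737, edgeR).

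The letters paired the libraries of the 3 groups, and with the letter as a block 10 members passed under LPS, where 73.5% of all genes did. The added ones were mt-Cytb (log2 fold change 0.39, adjusted p = 0.00139), mt-Rnr1 (0.98, adjusted p = 0.0217) and mt-Rnr2 (1.69, adjusted p = 0.0108, all edgeR with the block). Within letters A, B and C, mt-Rnr1 differed by 1.63, -0.69 and 1.62 (log2) and mt-Rnr2 by 2.18, -1.08 and 2.89. Both rRNAs thus fell in letter B. With counts scaled to library size only, 0 of the 17 passed (0 at unadjusted p under 0.05), 5 of the 6 called mRNAs had a log2 fold change below 0, and 78.0% of all genes passed. The median over all genes then lay at -0.62 (log2), and that of the 7 mRNAs with at least 1000 counts in every library at -0.14. These mRNAs were above the bulk of genes under both scalings, which is no separate support. A change of factors moves all genes by nearly the same amount and leaves that distance nearly unchanged. Leaving out 1 library gave 3 calls without LPS library C, 4 without LPS library A, 4 without unstimulated library A and 11 without LPS library B, with mt-Co1, mt-Nd5 and mt-Nd6 past the threshold in all 9 such fits. In the order named, 10720 of 16612, 10572 of 16634, 10768 of 16596 and 10763 of 16622 genes passed.

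**Figure D3:**
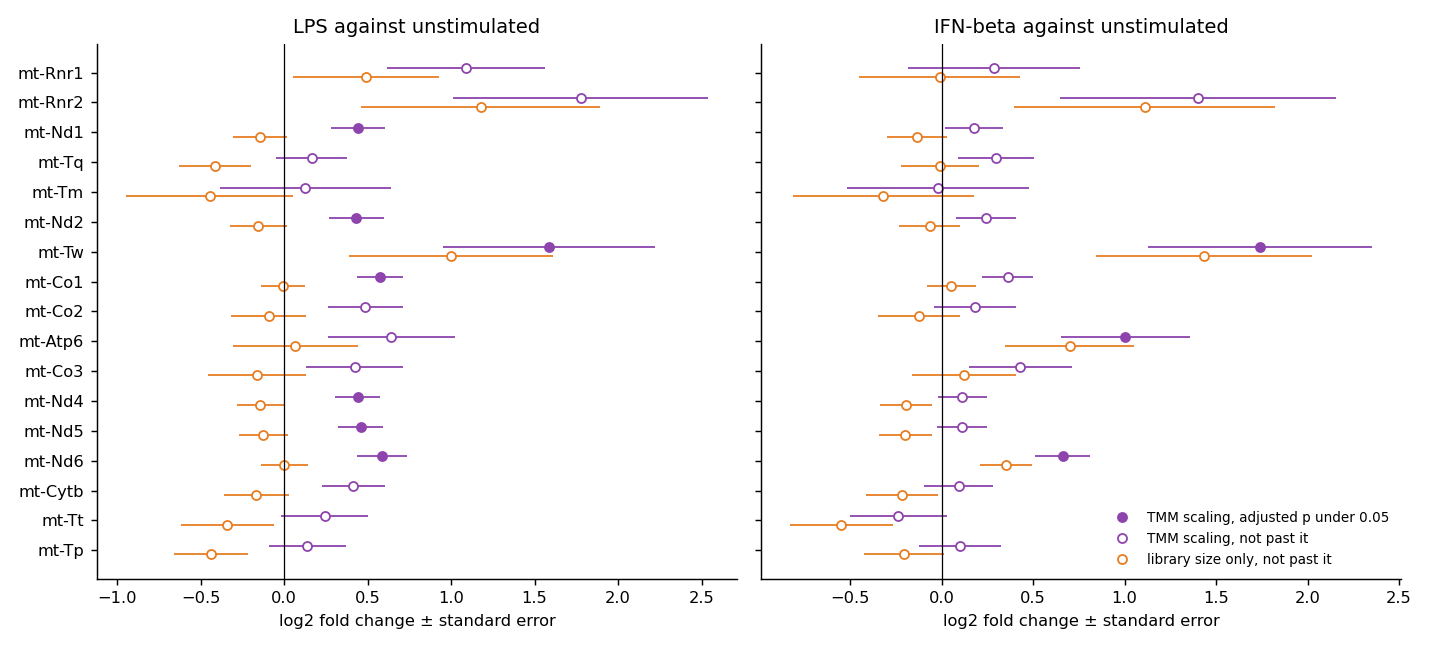
Log2 fold changes with standard errors (horizontal axis) of the 17 tested mitochondrial genes in genome order for LPS (left) and IFN-β (right) against unstimulated DCs. Purple points use TMM factors and orange points library size only, and filled points passed adjusted p under 0.05. The 7 mRNAs with at least 1000 counts lie at 0.42 to 0.59 under LPS with TMM factors and at -0.17 to 0.00023 with library size only.

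In IFN-β-treated DCs fewer mitochondrial genes passed, and mt-Nd6 was the only well-counted mRNA among them. Of the 17 tested, 3 were higher (mt-Nd6, mt-Tw and mt-Atp6) and 0 lower, against 46.9% of all genes called, 23.6% higher and 23.3% lower. The median log2 fold change of the 17 was 0.24, against -0.02 over all genes. mt-Nd6, the light-strand mRNA, had 95.1, 102 and 102 CPM in unstimulated, 168, 113 and 168 CPM in LPS and 185, 144 and 143 CPM in IFN-β libraries. On the log2 scale it rose by 0.66 ± 0.15 with IFN-β (adjusted p = 0.00435, edgeR) and by 0.59 ± 0.15 with LPS (adjusted p = 0.00496). Neither stimulated group overlapped with the unstimulated one.

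The other complex I mRNAs moved less under IFN-β, with log2 fold changes of 0.11 (mt-Nd4), 0.11 (mt-Nd5), 0.17 (mt-Nd1) and 0.24 (mt-Nd2), none past the threshold. mt-Co1 had a log2 fold change of 0.36 ± 0.14 (adjusted p = 0.0546, edgeR), and with the letter as a block it passed (0.36, adjusted p = 0.00483), as did mt-Rnr2 (1.39, adjusted p = 0.0301). The block gave 5 calls, where 56.3% of all genes passed. mt-Atp6 had the larger fold of the called mRNAs (log2 fold change 1.003 ± 0.353, adjusted p = 0.0382, edgeR), but on 5 to 12 counts in unstimulated and 12 to 19 in IFN-β libraries. It lost its call with DESeq2 (adjusted p = 0.0993), which called mt-Co1 in its place, and without the filter on low counts (adjusted p = 0.0914), and passed in 4 of 9 fits that left out a library. With library size only 0 members passed (2 at unadjusted p under 0.05), against 59.2% of all genes, with mt-Nd6 at 0.35 (adjusted p = 0.0508) and mt-Tw at 1.43 (adjusted p = 0.0561) just short of the call. The count fell to 1, mt-Nd6, without unstimulated library A, unstimulated library C or IFN-β library A, and mt-Nd6 passed in all 9 fits that left out a library. In the fits with 1 call, 7038 of 16596, 6518 of 16528 and 6467 of 16627 genes passed.

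Between the stimuli, 0 of the 17 differed (edgeR, with 2 at unadjusted p under 0.05), although 49.1% of all genes did, 25.8% higher and 23.3% lower in IFN-β. The estimates closest to the threshold were lower in IFN-β for mt-Nd5 (log2 difference -0.35 ± 0.14, adjusted p = 0.0548) and mt-Nd4 (-0.33 ± 0.13, adjusted p = 0.0644). With the block, mt-Nd5 (-0.34, adjusted p = 0.00229), mt-Nd4 (-0.32, adjusted p = 0.00276) and mt-Cytb (-0.30, adjusted p = 0.0114) were lower in IFN-β than in LPS, where 58.0% of all genes passed. With library size only 0 passed (1 at unadjusted p under 0.05), against 55.5% of all genes. DESeq2 called mt-Nd4 and mt-Nd5, 2 genes, and without LPS library B 6 members were lower in IFN-β. These fits called 7929 of 16260 and 7289 of 16622 genes.

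To compare the classes without any scaling to nuclear genes, counts were set against the summed counts of the 13 mitochondrial mRNAs in the same library. Relative to that sum no mRNA passed in any comparison. The 7 well-counted mRNAs then lay between -0.10 and 0.08 (log2) under LPS. They make up nearly all of that sum, and mt-Co1 at least 507 of 1000 counts, so values near 0 are in part set by the scale. mt-Co1 made up 539, 523 and 507 of 1000 mRNA counts in unstimulated, 554, 551 and 535 in LPS and 573, 553 and 550 in IFN-β libraries, higher in 3 of 3 letters for both stimuli. The share of mt-Cytb was lower in 3 of 3 letters for both stimuli, at 151, 155 and 171 of 1000 in unstimulated, 139, 146 and 160 in LPS and 128, 141 and 155 in IFN-β libraries. For mt-Co1 the IFN-β libraries did not overlap with the unstimulated ones, and for mt-Cytb the groups overlapped. Neither gene passed the test on this scale.

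mt-Nd6 had 14.7, 15.0 and 13.5 counts per 1000 counts of the 12 heavy-strand mRNAs in unstimulated, 17.5, 14.4 and 13.8 in LPS and 23.2, 17.9 and 16.3 in IFN-β libraries A, B and C. The light-strand mRNA was thus relatively highest in IFN-β, where all libraries exceeded all unstimulated ones, while the LPS libraries overlapped with both groups. Relative to the mRNA sum its log2 fold change under IFN-β was 0.40 ± 0.20 (adjusted p = 0.113, edgeR), or 0.39 with the block (adjusted p = 0.031). Under LPS the corresponding value was 0.08 ± 0.20 (adjusted p = 0.742), and the difference between the stimuli did not pass (0.32 ± 0.20, adjusted p = 0.22). IFN-β library A was the highest of all 9.

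The rRNAs varied widely within groups. mt-Rnr2 had 39.4, 29.8 and 11.1 CPM in unstimulated, 179, 14.1 and 82.1 CPM in LPS and 105, 77.0 and 29.9 CPM in IFN-β libraries. LPS library A was the highest of all and LPS library B lay within the unstimulated range. mt-Rnr1 had 28.2, 26.4 and 13.4 CPM in unstimulated, 87.3, 16.4 and 41.4 CPM in LPS and 27.1, 30.4 and 25.4 CPM in IFN-β libraries. With TMM scaling neither passed under LPS (mt-Rnr2 1.78 ± 0.76, adjusted p = 0.0596, and mt-Rnr1 1.09 ± 0.47, adjusted p = 0.0611, edgeR). Both rRNAs are targets of the depletion step, and its efficiency per library was not measured. By library size, genes annotated as rRNA outside the mitochondrial genome summed to 65.7 to 71.5 CPM in unstimulated, 60.2 to 76.3 in LPS and 52.6 to 63.9 in IFN-β libraries. Most of each sum came from 1 of these genes, with 1553 to 2395 counts per library. The nuclear gene Lars2, looked up with them, ranged from 11.3 CPM (IFN-β library A) to 376 CPM (LPS library A). The part of the depletion in the mt-Rnr1 and mt-Rnr2 values was not tested.

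Relative to the mRNA sum, 2 of the 17 members were higher under LPS and the same 2 under IFN-β, mt-Rnr2 and mt-Tw. mt-Rnr2 had a log2 fold change of 1.19 ± 0.42 under LPS (adjusted p = 0.0126, edgeR) and 1.12 ± 0.42 under IFN-β (adjusted p = 0.0326). Within letters the IFN-β differences were 1.09, 1.13 and 1.20, all higher, whereas the LPS differences were 1.61, -1.28 and 2.19. On this scale 64.3% of all genes passed under LPS (15.7% higher) and 35.5% under IFN-β (9.56% higher). Between the stimuli 0 of 17 passed (0 at unadjusted p under 0.05), against 35.2% of all genes (25.9% higher in IFN-β). DESeq2 with the same scaling called 0 members in each comparison, with 2 at unadjusted p under 0.05 under IFN-β. It called 10267, 5689 and 5621 of 16260 genes for LPS, IFN-β and IFN-β against LPS. With the block, mt-Rnr1 was added under LPS (0.45, adjusted p = 0.00831) and mt-Nd6 under IFN-β (above), where 72.2%, 49.6% and 46.9% of all genes passed for LPS, IFN-β and IFN-β against LPS. The LPS differences of mt-Rnr1 within letters A, B and C were 1.06, -0.89 and 0.92, so it fell in letter B. Without LPS library A or LPS library C, 0 members passed under LPS, and 1 passed without unstimulated library C. In these fits 9495 of 16634, 10228 of 16612 and 10057 of 16528 genes passed.

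mt-Tw was the only one of the 5 tested tRNAs that passed. It had 13, 22 and 8 counts in unstimulated, 49, 11 and 34 in LPS and 76, 39 and 19 in IFN-β libraries. LPS library B again lay with the unstimulated libraries, as for mt-Rnr2. The TMM-scaled log2 fold change was 1.59 ± 0.63 under LPS (adjusted p = 0.045, edgeR) and 1.74 ± 0.61 under IFN-β (adjusted p = 0.0382). It was past the threshold in 4 of 9 fits that left out a library for each stimulus. The 4 other tested tRNAs did not pass with TMM scaling. mt-Tq had 26 to 48 counts per library, mt-Tp 29 to 47, mt-Tt 15 to 29 and mt-Tm 4 to 21, and their log2 fold changes lay between -0.24 and 0.30 for both stimuli.

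Across the 9 libraries the scaled counts of mt-Tw and mt-Rnr2 varied together. This relation was noticed in these data and is given as a description, without a test. As above, the mt-Tw counts are not read as levels of mature tRNA. On the log2 scale of CPM by library size (0.5 counts added), Pearson's r was 0.94 and Spearman's rho 0.92. Without the 2 libraries farthest from the median of mt-Rnr2, r was 0.86, and it was 0.95 with group means removed and 0.93 with letter means removed. For mt-Rnr1, r with mt-Rnr2 was 0.86 and rho was 0.73, and r was 0.61 without those 2 libraries. Of the 5 other genes set against mt-Rnr2, r ranged from -0.69 for mt-Tt to 0.65 for mt-Nd6. All values of a library share its depth and its depletion.

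The rRNAs had 10.3, 8.13 and 3.22 counts per 1000 mRNA counts in unstimulated, 27.2, 3.83 and 10.0 in LPS and 16.1, 13.1 and 6.18 in IFN-β libraries. Library A was the highest in each group, and the groups overlapped. The summed neutrophil markers were likewise highest in library A of each group, at 3.88, 4.60 and 4.61 CPM in unstimulated, LPS and IFN-β. Among them only Ngp and Ltf were highest in library A of each group. Ly6g was highest in library B under both stimuli, and Camp in library B under IFN-β. Mpo was highest in LPS library B and IFN-β library C, and Elane in unstimulated library B and LPS library C. Some DC and macrophage markers, such as Adgre1 and Cd74, were also highest in library A of each group, and others, such as Itgax, were not. The part of these markers was not tested. The tRNAs had 0.567, 0.481 and 0.421 counts per 1000 mRNA counts in unstimulated, 0.550, 0.395 and 0.406 in LPS and 0.670, 0.597 and 0.396 in IFN-β libraries, again with overlap.

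**Figure D4:**
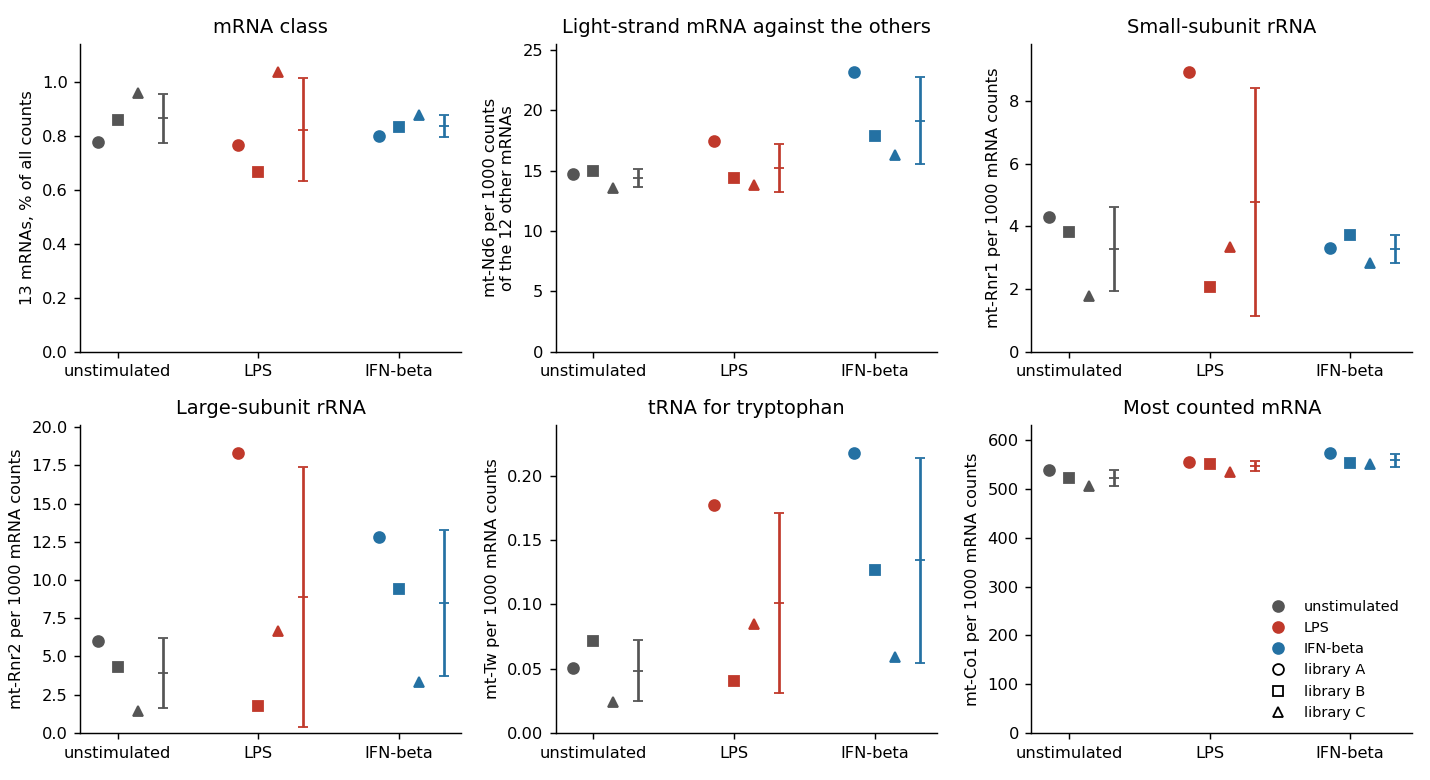
Per-library values by group, with the mean and SD beside them, for the 13 mRNAs as a percentage of all counts, mt-Nd6 per 1000 counts of the 12 other mRNAs, and mt-Rnr1, mt-Rnr2, mt-Tw and mt-Co1 per 1000 mitochondrial mRNA counts. Circles, squares and triangles are libraries A, B and C. mt-Rnr2 and mt-Tw spread widely within LPS, with library B among the unstimulated values, while mt-Co1 stays between 507 and 573.

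Among nuclear genes that act on the mitochondrial genome, more were lower than higher with each stimulus. Of 68 such genes in 5 lists, all tested, 13 were higher and 41 lower under LPS (19.1% and 60.3%, against 32.8% and 35.4% of all genes). Under IFN-β, 8 were higher and 39 lower (11.8% and 57.4%, against 23.6% and 23.3%). The median log2 fold change was -0.45 under LPS and -0.31 under IFN-β, against -0.04 and -0.02 over all genes. Between the stimuli 17 were higher and 11 lower in IFN-β. With library size only the split was 3 higher and 57 lower under LPS, 4 and 52 under IFN-β, and 38 higher and 3 lower in IFN-β against LPS. On that scale 78.0%, 59.2% and 55.5% of all genes passed, and these calls were one-sided too. Of all genes called, 21.9% were higher under LPS, 22.3% under IFN-β and 77.9% in IFN-β against LPS. The values below use TMM factors.

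Of 11 transcription genes, 2 were higher and 3 lower under LPS, and 0 were higher and 4 lower under IFN-β. These are 45.5% and 36.4% of the list, against 68.2% and 46.9% of all genes, and the list's median log2 fold changes were 0.15 and 0.03. Polrmt, the mitochondrial RNA polymerase, fell by 0.90 under LPS (log2, adjusted p = 7.45e-05, edgeR) and by 0.91 under IFN-β (adjusted p = 0.000188). Its partner in promoter melting, Tfb2m, fell by 0.98 and by 0.46, and Mrpl12, a ribosomal protein that also binds the polymerase, by 1.48 and by 1.02. Tfam, which packages the DNA and activates its promoters, did not pass (0.18 and 0.24) and passed under IFN-β with the block (0.24, adjusted p = 0.0478). With library size only it was lower under LPS (-0.41, adjusted p = 0.00332). The elongation factor Tefm rose under LPS (0.77, adjusted p = 0.00188), which library size alone did not give (0.18, adjusted p = 0.329), and had 0.30 under IFN-β. Tfb1m, a methyltransferase of the small-subunit rRNA, had 0.12 under LPS (-0.47, adjusted p = 0.0165, with library size only) and fell by 0.61 under IFN-β.

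Of 11 genes in the RNA cleavage list, 9 were lower and 0 higher under each stimulus. These are 81.8% lower, against 35.4% of all genes under LPS and 23.3% under IFN-β. The list is broader than the cutting enzymes, as it holds Angel2 and FASTK-family genes beside the RNase P subunits and Elac2. The subunits of mitochondrial RNase P, which cuts the 5′ end of tRNAs, all fell, Trmt10c by 0.78 under LPS and by 0.28 under IFN-β, Hsd17b10 by 1.05 and by 0.52, and the nuclease subunit Prorp by 0.47 and by 0.57. Elac2, which cuts the 3′ end, fell by 0.57 and by 0.61.

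Of 12 genes for mRNA stability and decay, 3 were higher and 6 lower under LPS, and 4 were higher and 7 lower under IFN-β (75.0% and 91.7% called, against 68.2% and 46.9% of all genes). Pnpt1, the mitochondrial polynucleotide phosphorylase, is known as an interferon-induced gene. It rose from 28.0 ± 2.80 CPM to 99.1 ± 14.2 CPM under LPS (SD, n = 3, log2 fold change 1.83, adjusted p = 1.34e-07, edgeR) and to 77.1 ± 4.50 CPM under IFN-β (1.46, adjusted p = 4.1e-06). Supv3l1, the helicase that forms the degradosome with it, fell by 0.69 and by 0.51. Lrpprc and Slirp, which form a complex that stabilises mitochondrial mRNAs, moved in opposite directions. Lrpprc fell by 1.17 under LPS and by 0.71 under IFN-β, whereas Slirp rose by 0.90 and 0.56.

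Of 22 genes for rRNA and tRNA modification, 4 were higher and 15 lower under LPS, and 2 were higher and 12 lower under IFN-β. These are 86.4% and 63.6% of the list, against 68.2% and 46.9% of all genes. Trmt61b, a methyltransferase for mitochondrial tRNA and rRNA, rose by 1.56 and 0.91 with LPS and IFN-β, respectively. Rpusd3, a pseudouridine synthase family member, and Mrm3, which methylates the large-subunit rRNA, fell by 2.12 and by 1.73 under LPS and by 1.51 and by 1.23 under IFN-β. Nsun4, which acts on the small-subunit rRNA, rose by 0.61 under LPS, a value that library size alone put at 0.02 (adjusted p = 0.885), and had 0.02 under IFN-β. Of 12 replication genes, 4 were higher and 8 lower under LPS, and 2 were higher and 7 lower under IFN-β. That is 100% and 75.0% of the list, against the same 68.2% and 46.9% of all genes. The helicase Twnk fell by 1.43 and by 0.56, the nucleases Endog by 2.10 and by 0.73 and Exog by 1.40 and by 0.60, and the topoisomerase Top3a rose by 0.68 and 0.65 (0.09, adjusted p = 0.29, under LPS with library size only).

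**Figure D5:**
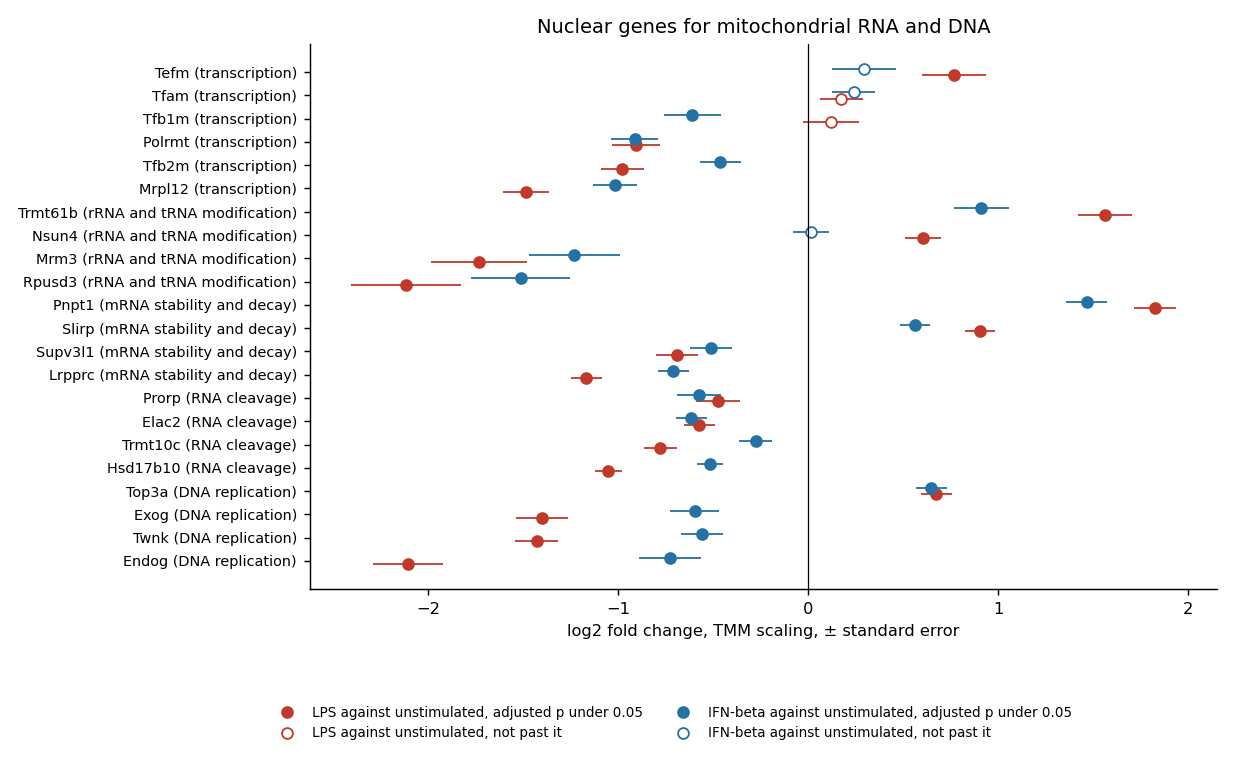
TMM-scaled log2 fold changes with standard errors (horizontal axis) of 22 nuclear genes for mitochondrial RNA and DNA, under LPS (red) and IFN-β (blue) against unstimulated DCs, with filled points past adjusted p under 0.05. Pnpt1, Trmt61b and Slirp lie to the right of 0 with both stimuli, and the RNA cleavage genes lie to the left.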

How the data were processed

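RNA-seq of 9 libraries of WT DCs (3 groups of 3, 6 h) was analysed. The authors prepared libraries with the KAPA RNA HyperPrep Kit with RiboseErase, trimmed adapters, mapped reads to mm10 (GRCm38) with STAR and deposited raw counts per gene. The submitters' processing notes name Trim Galore 0.6.0 and STAR 2.7.8a, and the study's methods give another STAR release. Which strand column was used is not given in the sources used here. Of 439 genes lying wholly under exons of the other strand, 242 (55.1%) had counts, which unstranded counting would leave at 0. The columns of no mapped sample numbered 0.

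All 55471 rows were fitted together with edgeR 4.0.16 (R 4.3.3) with TMM factors, its filter on low counts and the quasi-likelihood test over all 9 libraries, with Benjamini-Hochberg adjustment. A further fit set the library size to the summed counts of the 13 mitochondrial mRNAs. Alternatives were DESeq2 1.42.0, library size only, upper-quartile factors, other filters, the letter as a block and each library left out. Ratios between classes got no test. On data simulated for LPS against unstimulated, the fits over 16260 genes recovered 86.5% and 82.5% of 200 changed genes. The simulated libraries were unpaired and had the same spread for every gene, and only well-counted nuclear genes were changed. These rates therefore do not carry over to the mitochondrial calls.

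Same-letter libraries deviated together in 9 of 9 pairs (r = 0.115 to 0.47), and different letters did not (r = -0.40 to 0.028, 18 pairs), so letters were taken as pairs from the data. Deviations were taken from group means of 3 libraries, so positive same-letter values push the different-letter values down. The latter are therefore no separate support. The labels do not say what a letter shares. Nothing says that the libraries came from separate mice, so p-values measure the spread between these libraries.

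No genome sequence was used. Shared windows of 100 bases were found by searching GENCODE M21 transcripts, which miss unannotated copies, and a paired read can be unique through its mate. Free bases next to a tRNA came from the same annotation. All 37 members are reported. Nuclear genes named were 13 core factors plus the 3 of the 5 lists with the largest change per comparison and direction, and the 3 nuclear copies with the most counts. The members, lists and tests were chosen with earlier results of these data known.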

Additional observations from a re-analysis of the deposited data

Results flagged for a closer look

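By edgeR without the replicate block, 0 of 17 mitochondrial genes differed between the responses to LPS and IFN-β (2 at unadjusted p under 0.05). With the block, mt-Nd5, mt-Nd4 and mt-Cytb were lower in IFN-β, and DESeq2 called mt-Nd4 and mt-Nd5. The block called 58.0% of all genes and DESeq2 7929 of 16260. Of the 68 listed nuclear genes 28 differed (41.2%, against 49.1% of all genes). The 22 named genes were in part chosen for a large difference between the stimuli, so their number is a description. The 14 of them that passed are given as IFN-β minus LPS (log2, edgeR, TMM factors). The difference was positive for Endog (1.38), Twnk (0.87), Exog (0.80), Hsd17b10 (0.53), Tfb2m (0.52), Trmt10c (0.50), Mrpl12 (0.47) and Lrpprc (0.46), with adjusted p from 0.000102 to 0.00848, all of which fell with both stimuli and fell less with IFN-β. It was negative for Tfb1m (-0.73), Trmt61b (-0.65), Nsun4 (-0.59), Tefm (-0.47), Pnpt1 (-0.36) and Slirp (-0.34), with adjusted p from 0.0004 to 0.0363. With library size only, Pnpt1 (-0.08, adjusted p = 0.438), Slirp (-0.06, adjusted p = 0.508) and Tefm (-0.19, adjusted p = 0.33) no longer passed.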

How the results depend on the processing

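With library size only, 0 members passed under LPS and 0 under IFN-β, and the LPS estimates reversed for mt-Nd1 (-0.14), mt-Nd2 (-0.15), mt-Co1 (-0.0077), mt-Nd4 (-0.14) and mt-Nd5 (-0.13). On that scale 78.0% of all genes passed under LPS and 59.2% under IFN-β. Upper-quartile factors gave 4 calls under LPS, where 11178 of 16260 genes passed. Factors from nuclear genes only gave the same counts as all genes. Without a filter on low counts 28 members were tested, 5 passed under IFN-β (among them mt-Ti, with 17 counts in all) and 3 between the stimuli, and a minimum of 10 counts in every library left 1 under IFN-β. Without the filter 7444 and 8155 of 29932 genes passed in the same comparisons. With the minimum 7049 of 13625 genes passed under IFN-β. The replicate block gave 5 under IFN-β and 3 between the stimuli, and DESeq2 gave 2 between the stimuli. With the block 56.3% and 58.0% of all genes passed, and with DESeq2 7929 of 16260 did. Leaving out 1 library gave 3 to 11 calls under LPS, 1 to 3 under IFN-β and 0 to 6 between the stimuli. The 6 came without LPS library B, where 7289 of 16622 genes passed between the stimuli. Without unstimulated library C there was 1, where 8034 of 16528 genes passed. Under LPS, 10720 of 16612 genes passed in the fit with 3 calls and 10763 of 16622 in the fit with 11.

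Relative to the mitochondrial mRNA sum, DESeq2 called 0 members under LPS and 0 under IFN-β, and without the filter 1 (mt-Rnr1) differed between the stimuli. DESeq2 called 10267 and 5689 of 16260 genes, and without the filter 5686 of 29932 genes differed between the stimuli. Leaving out 1 library gave 0 to 3 calls under LPS, 1 to 2 under IFN-β and 0 to 2 between the stimuli. A single call under IFN-β came without LPS library B or IFN-β library A, and the 2 between the stimuli without LPS library A, where the mt-Rnr2 difference turned to 1.01, against -0.55 without LPS library B. In the fits with a single call, 7142 of 16622 and 4380 of 16627 genes passed under IFN-β. In the fit with 2 calls 4690 of 16634 genes passed. Counting only mRNAs with mostly unshared windows moved mt-Nd6 to 15.4 per 1000 other mRNA counts in unstimulated DCs. With the replicate block the 68 listed nuclear genes gave 13 higher and 42 lower under LPS, 9 and 42 under IFN-β, and 20 and 11 in IFN-β against LPS. These were 80.9%, 75.0% and 45.6% of the listed genes, against 73.5%, 56.3% and 58.0% of all genes. Of all genes called with the block, 48.2%, 49.6% and 52.3% were higher. The causes were not tested. Depth limits mt-Tw, mt-Atp6 and the other genes with under 100 counts per library.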
